A study of Bos taurus with 4 samples.

Results

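Zinc finger genes were examined in bovine (Bos taurus) embryos of the 8- to 16-cell stage, collected 3 days post insemination. The members are all table rows whose bovine symbol starts with ZNF or ZFP followed by a digit, or with ZSCAN, ZKSCAN, ZIM or ZFX. This gave 196 rows for 192 genes, among 14517 rows in all: 172 ZNF rows, 8 ZFP, 9 ZSCAN, 5 ZKSCAN, 1 ZIM (ZIM2) and ZFX itself. The gene table used for names lists 347 genes with such symbols, and the 155 others were not analysed here. Injection took place at the zygote stage in every group, with small interfering RNAs (siRNAs). The control group (NC, n = 2 libraries) received negative control siRNAs. The knockdown group (KDM5_KD, n = 2 libraries) received siRNAs against KDM5A, KDM5B and KDM5C, which encode demethylases of lysine 4 on histone H3. For KDM5_KD replicate 2 the labels conflict, since the title says Kdm5 and the treatment field names KDM6 siRNAs, and values without it are given where they matter. The labels do not give the number of embryos per library or say whether the libraries came from separate cultures, so every p-value measures only the spread between these libraries, which may be technical.

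Most of these genes encode C2H2 zinc finger proteins, in which pairs of cysteines and histidines hold a zinc ion and each finger contacts a short stretch of DNA. Many carry a KRAB box, which recruits the corepressor TRIM28 and the histone methyltransferase SETDB1 to silence transposable elements and imprinted loci, and others carry a SCAN domain, through which they pair with each other. The name also covers unrelated proteins, such as the ZFP36 family, whose CCCH fingers bind messenger RNA. In early embryos, KRAB zinc finger proteins are known for protecting methylation at imprinted loci while the rest of the genome is reprogrammed.

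The knockdown and the makeup of the libraries were checked on other genes. Levels are FPKM (mapped fragments scaled to transcript length and library size), and differences between groups are on log2(FPKM + 1) values, a scale on which changes of low genes look smaller than they are. KDM5A was at 28.4 and 27.1 FPKM in NC against 10.5 and 10.1 FPKM in KDM5_KD, replicate 2 included. KDM5C was at 28.1 and 40.6 FPKM in NC against 15.1 and 17.8 FPKM in KDM5_KD, and KDM5B was not analysed here. KDM6A was at 7.63 and 11.3 FPKM in NC against 7.90 and 9.29 FPKM in KDM5_KD, with overlapping groups. Which siRNAs KDM5_KD replicate 2 received was not tested. All 20 rows for 19 of the 26 listed oocyte and early embryo markers, NANOG and POU5F1 among them, were at 1 FPKM or more in every library. Cumulus cell markers had a summed level of 105 and 62.7 FPKM in NC and of 234 and 232 FPKM in KDM5_KD. Of the 20 markers, 16 were higher in both knockdown libraries than in both controls. The same held for 35.1% of transcripts with a mean of at least 1 FPKM. Among lower rows not at 0 in every library it held for 29.2%. VIM and COL1A1 had the highest levels of the 20 markers. VIM was at 35.6 and 8.09 FPKM in NC against 84.6 and 98.1 FPKM in KDM5_KD. COL1A1 was at 28.4 and 23.9 FPKM in NC against 47.7 and 35.8 FPKM in KDM5_KD. The FSH receptor gene FSHR and LHCGR were listed at 0 in both NC libraries and stayed below 0.05 FPKM elsewhere. Sperm markers summed to at most 1.90 FPKM. Of the blood markers, HBA accounted for nearly all of a summed level of 32.0 and 5.996 FPKM in NC and of 38.6 and 33.7 FPKM in KDM5_KD. HBA was at 31.5 and 5.08 FPKM in NC against 38.3 and 33.1 FPKM in KDM5_KD. Its gap came mostly from NC replicate 2. HBB and CD14 went the other way at low levels. HBB was at 0.140 and 0.190 FPKM in NC and listed at 0 in each KDM5_KD library. CD14 was at 0.297 and 0.338 FPKM in NC against 0.253 and 0.129 FPKM in KDM5_KD. PTPRC, AIF1 and CD3E reached at most 0.383 FPKM and overlapped between groups. The part of the cumulus marker and HBA differences in the results on zinc finger genes was not tested. In whole embryos, more cells of a type and more RNA per cell cannot be told apart.

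Zinc finger genes were broadly present at this stage and mostly at modest levels. Between 146 and 160 of the 196 rows were at 1 FPKM or more in each library. A mean of at least 1 FPKM over the 4 libraries, the condition for testing, was met by 156 rows, or 79.6% against 61.8% of all rows in the table. The median level of these 156 was 5.16 FPKM, with quartiles of 2.37 and 15.9 FPKM, while all 8970 transcripts tested had a median of 10.5 FPKM. Only 6 members (3.85%) had a mean of 50 FPKM or more, a level reached by 14.9% of all transcripts tested.

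The most abundant member was ZNF296, a protein known to interact with pluripotency factors, at 259 and 218 FPKM in NC against 239 and 179 FPKM in KDM5_KD. Next came ZNF622, a factor in large ribosomal subunit maturation, at 161 and 158 FPKM in NC and 167 and 159 FPKM in KDM5_KD. ZNF394, a KRAB and SCAN protein, was at 158 and 160 FPKM in NC against 156 and 146 FPKM in KDM5_KD. The groups overlapped for the first 2 of these, and for ZNF394 the gap between groups was small beside its level. ZNF574 had 123 and 99.6 FPKM in NC and 94.4 and 91.7 FPKM in KDM5_KD. ZNF207, which binds microtubules and the checkpoint protein BUB3 during spindle assembly, had 97.5 and 108 FPKM in NC and 96.1 and 89.3 FPKM in KDM5_KD. ZNF408, a gene linked to retinal vessel disease, was at 89.5 and 75.2 FPKM in NC against 68.2 and 58.0 FPKM in KDM5_KD. None of these 6 passed the test, with limma adjusted p between 0.271 and 0.903.

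One member changed at the threshold. ZNF557 (NM_001098384), which encodes a KRAB zinc finger protein, was at 3.17 FPKM in NC replicate 1 and 2.71 FPKM in NC replicate 2, against 14.2 and 20.2 FPKM in the knockdown. Both knockdown values lay far above both controls, and the means were 2.94 ± 0.321 and 17.2 ± 4.19 FPKM (SD, n = 2 each), a 5.85-fold rise. Its log2 difference was 2.19 (SE 0.224, limma adjusted p of 0.0333), the 38th largest increase among the 8970 transcripts. Over the 14 alternatives the difference lay between 1.95 and 2.49, but the call was not kept. A change of filter or variance model cannot move the difference, so those alternatives do not bear on its size. The limma adjusted p was 0.0558 without NC replicate 2, 0.0653 without KDM5_KD replicate 1 and 0.147 without KDM5_KD replicate 2, the library with conflicting labels. It was 0.0165 without NC replicate 1. With no filter on low values it was 0.223, and with a variance prior that ignores level 0.0605.

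ZNF385B (NM_001083502), from a small family of zinc finger genes related to ZNF385A, had the next largest difference. It was nearly silent in the controls, at 0.810 and 0.359 FPKM, and reached 3.11 and 3.87 FPKM in KDM5_KD. The means were 0.584 ± 0.319 and 3.49 ± 0.535 FPKM (SD, n = 2 each), 5.97 times apart, and the groups were well separated. The log2 difference of 1.51 (SE 0.240) did not pass over all transcripts (limma adjusted p of 0.0953). With 1 library left out, the difference lay between 1.30 and 1.72. Its control mean is below 1 FPKM, so it entered the test only through its knockdown values, 1 of 7 such members among the 156 (4.49%, against 4.33% of all transcripts tested). ZNF385A, listed among the genes of RNA handling, was at 1.23 and 0.291 FPKM in NC against 0.605 and 1.20 FPKM in KDM5_KD, so its groups overlapped.

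Genes beside these on the chromosome were read from the gene order of the assembly ARS-UCD2.0, counting protein-coding genes with a row in the table. Of the 4 nearest on either side of ZNF557, none passed the test. LOC508834, the next one along, was at 6.25 and 4.30 FPKM in NC against 6.19 and 16.1 FPKM in KDM5_KD, high in replicate 2 alone. ACP5, on the other side, stayed between 0.137 and 0.321 FPKM in all 4 libraries. CNN1, a smooth muscle calponin gene, was above both controls in each knockdown library, at 5.86 and 3.88 FPKM in NC against 11.9 and 10.6 FPKM in KDM5_KD (log2 difference 1.08, limma adjusted p 0.123). PEX11G and ECSIT also lay above both controls, with log2 differences of 0.39 and 0.28, and MCOLN1 lay below, at -0.25. Around ZNF385B, UBE2E3, SESTD1, PLEKHA3 and FKBP7 were higher in each knockdown library than in each control. Their log2 differences were 0.49, 0.53, 0.24 and 0.89 (limma adjusted p of 0.367, 0.325, 0.569 and 0.147). NEUROD1 and CCDC141, too low to be tested, also lay above both controls, and ITPRID2 and ITGA4 overlapped between groups. Of all transcripts tested, 35.1% had both knockdown values above both controls. ZNF385B overlaps 4 other annotated genes, and strand-specific counting is not stated, so reads of overlapping genes may be included in its value.

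**Figure D1:**
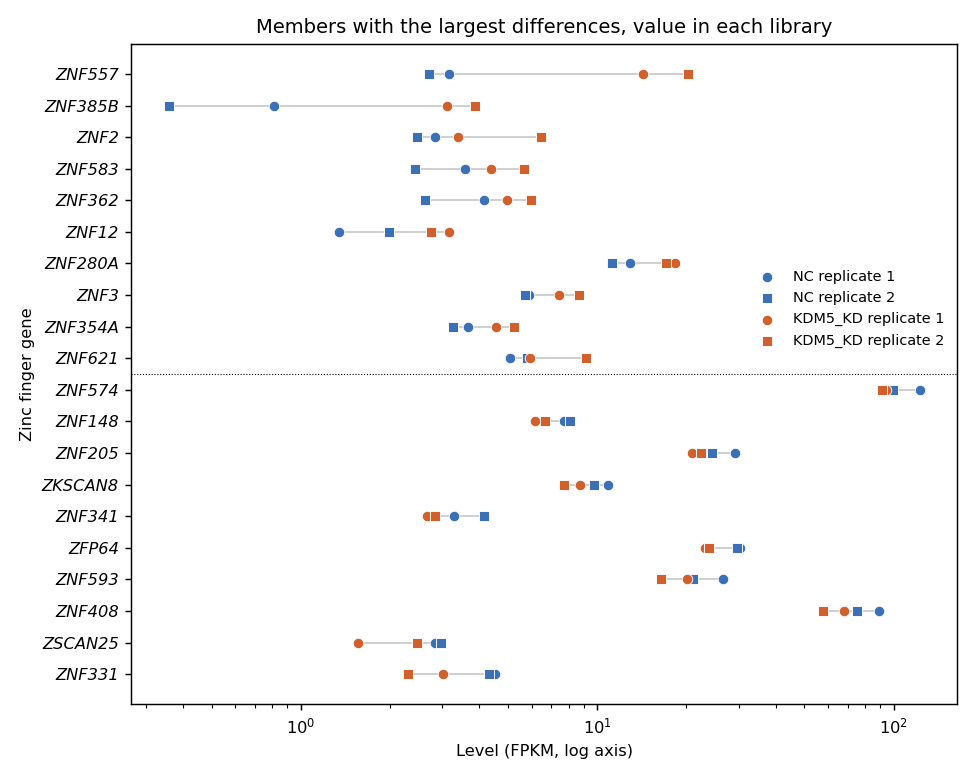
Level in each library (horizontal log axis, FPKM) of the 20 zinc finger genes with the largest differences among those with a mean of at least 2 FPKM whose groups do not overlap, 10 higher above the dotted line and 10 lower below it. Blue marks NC, orange marks KDM5_KD, circles are replicate 1 and squares replicate 2, and grey lines span the 4 values. ZNF557 and ZNF385B have the widest gaps between groups.

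After these the differences on the higher side were small. The remaining 8 genes named by size, all with both knockdown libraries above both controls and a mean of at least 2 FPKM, had log2 differences from 0.39 to 0.65 and limma adjusted p from 0.193 to 0.462, so none passed. ZNF280A, related to the Drosophila insulator protein Su(Hw), came nearest: it was at 12.9 and 11.2 FPKM in NC against 18.3 and 17.1 FPKM in KDM5_KD, with a log2 difference of 0.52 (SE 0.158). Its values were tight within groups. ZNF2, a KRAB gene, was at 2.84 and 2.47 FPKM in NC against 3.39 and 6.44 FPKM in KDM5_KD, so most of its gap came from replicate 2. The same holds for ZNF621, at 5.07 and 5.78 FPKM in NC against 5.94 and 9.14 FPKM in KDM5_KD. For ZNF583 and ZNF362 NC replicate 2 was the lowest library, at 2.42 and 2.62 FPKM. ZNF583 was otherwise at 3.59 FPKM in NC against 4.39 and 5.66 FPKM in KDM5_KD. ZNF362 was at 4.14 FPKM in NC replicate 1 and at 4.95 and 5.997 FPKM in KDM5_KD. ZNF3 and ZNF354A, both KRAB genes, had more even groups. ZNF3 was at 5.87 and 5.72 FPKM in NC against 7.45 and 8.70 FPKM in KDM5_KD, and ZNF354A at 3.66 and 3.25 against 4.56 and 5.23 FPKM.

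On the lower side no member passed, and the range was narrower. The 10 genes named by size had log2 differences from -0.57 to -0.25 and limma adjusted p from 0.249 to 0.490. ZNF331, a KRAB gene reported as imprinted in several mammals, had the largest: it was at 4.51 and 4.30 FPKM in NC against 3.02 and 2.29 FPKM in KDM5_KD, a log2 difference of -0.57 (SE 0.208). Its control values were close together. Both knockdown values lay below them, as the choice of these 10 genes required. ZFP64, a transcription factor known to act on the promoter of the H3K4 methyltransferase gene KMT2A, was at 30.2 and 29.6 FPKM in NC against 23.1 and 23.8 FPKM in KDM5_KD, a log2 difference of -0.34 (SE 0.128). It had the tightest groups of the 10. ZNF593, a ribosome assembly factor, was at 26.5 and 21.0 FPKM in NC against 20.1 and 16.5 FPKM in KDM5_KD, where the spread within groups was about as wide as the gap between them. It overlaps ZNF593OS, an antisense gene, and reads of the pair cannot be told apart without strand.

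The SCAN genes among these were ZSCAN25 and ZKSCAN8. ZSCAN25 was at 2.84 and 2.97 FPKM in NC against 1.56 and 2.47 FPKM in KDM5_KD, low mainly in replicate 1. ZKSCAN8 was at 10.9 and 9.75 FPKM in NC against 8.74 and 7.74 FPKM in KDM5_KD. ZNF341, an activator of the STAT3 gene, was at 3.29 and 4.16 FPKM in NC against 2.67 and 2.84 FPKM in KDM5_KD. Also among the 10 chosen were ZNF205 (29.1 and 24.3 against 20.9 and 22.3 FPKM) and ZNF148 (7.69 and 8.10 against 6.18 and 6.66 FPKM).

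Counts over the family were set against those of the whole table. The 1 member called higher was 0.641% of the 156 tested, and 0.19% of all 8970 transcripts were called higher. No member was called lower by limma, where the background was 0.0892%. At an unadjusted limma p under 0.05 there were 7 members higher and 3 lower, or 4.49% and 1.92%, against 14.3% and 3.12% of all transcripts. On the log2(FPKM + 1) scale, ZNF557 and ZNF385B were at least 2-fold higher, 1.28% of those tested against a background of 4.52%, and no member was 2-fold lower (0.301%). With a pseudocount of 0.1 there were 4 members 2-fold higher, and the share of all transcripts at that setting is not given. By the ratio of mean FPKM, ZNF697, ZNF629 and ZNF182 joined ZNF557 and ZNF385B, 5 members (3.21%) against 8.33% of all transcripts. ZNF697, ZNF629 and ZNF182 each had a control mean below 1 FPKM. The same ratio was 2-fold lower for 1 member (0.641%, against 0.758% of all transcripts), and 1 member was also 2-fold lower on the log2 scale without NC replicate 2. This was ZNF444, chosen after its values were seen, at 6.81 and 1.29 FPKM in NC against 1.40 and 2.41 FPKM in KDM5_KD. Its position therefore rests on NC replicate 1.

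In 51 members (32.7%) both knockdown values lay above both controls, against 35.1% of all transcripts, and in 26 (16.7%) below, against 15.6%. This split depends on scaling: quantile normalization, which forces all libraries to one distribution and shifts the median of all transcripts by -0.14, gave 15 above (9.62%, against 20.7% of all transcripts) and 57 below (36.5% against 28.3%). Median-ratio scaling gave 35 above and 35 below (22.4% each, against 25.9% and 25.4%). A log2 difference above 0 was found for 95 members (60.9%), against 62.6% of all transcripts, and after quantile normalization for 32.1% against 43.0%. The median difference of the members was 0.07, with quartiles of -0.11 and 0.28, and that of all transcripts 0.09, with quartiles of -0.09 and 0.35. Its sign is not determined, since it was -0.01 with median-ratio scaling and -0.12 after quantile normalization, where the medians of all transcripts were -0.01 and -0.05.

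Spread was read between replicates and between groups. For the members, the median absolute difference was 0.18 between the NC replicates, 0.17 between the KDM5_KD replicates and 0.20 between the group means. For all transcripts these medians were 0.22, 0.18 and 0.21. Group means average over replicates, so without any change they would differ by less than single libraries do. Within 0.5 on the log2 scale lay 142 of the 156 members (91.0%), against 81.4% of all transcripts. The controls showed no common order on these genes, since 82 of 156 (52.6%) were higher in NC replicate 1 than in NC replicate 2, against 55.8% of all transcripts. Each pairing of 1 knockdown with 1 control library gave a positive median over the members, from 0.05 (KDM5_KD replicate 1 against NC replicate 1) to 0.15 (KDM5_KD replicate 2 against NC replicate 1). The pairings share libraries and are values side by side only. Summed over the 156 rows, the members had 2245 and 2138 FPKM in NC and 2200 and 2117 FPKM in KDM5_KD, so the family total overlapped between groups.

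**Figure D2:**
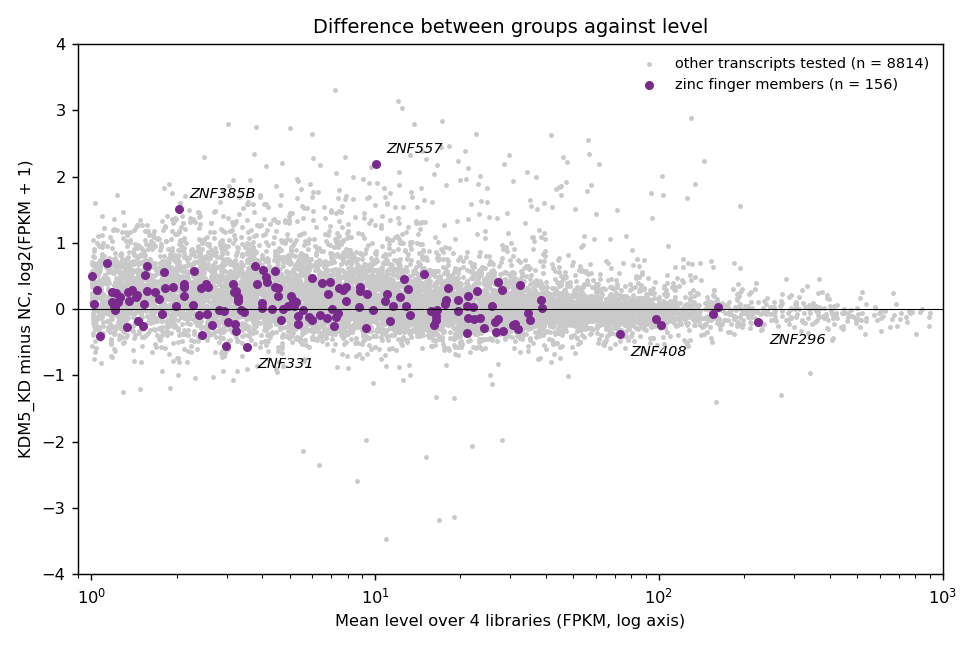
Difference between groups (vertical axis, KDM5_KD minus NC on the log2(FPKM + 1) scale) against mean level over 4 libraries (horizontal log axis, FPKM), with zinc finger members in purple and the other transcripts tested in grey. Outside the plotted range lie 17 transcripts, none of them a member. ZNF557 and ZNF385B stand above the other members, of which 142 lie within 0.5 of 0.

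Level was considered next, because the median difference of all transcripts was smaller at higher levels. The transcripts tested were ordered by mean FPKM and cut into 4 groups of equal number. In the lowest of them, up to 3.71 FPKM, 61 members had a median difference of 0.14, and all 2243 transcripts there had 0.25. The next group held 45 members with a median of 0.12, against 0.16 for all. In the third, 36 members had 0.04 against 0.06. In the highest, from 28.7 FPKM upward, 14 members had -0.15 against -0.02. The members thus followed the gradient of the whole table and lay below its median in each group. After quantile normalization the 4 medians of the members lay between -0.16 and -0.09, and those of all transcripts between -0.06 and -0.03.

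The share with a small difference was also read at matched level. Within 0.5 lay 85.2% of the members in the lowest group against 70.6% of all transcripts, and then 91.1% against 76.9%, 97.2% against 86.4% and 100% (14 of 14) against 91.8% in the groups above. At an unadjusted limma p under 0.05 and higher were 6.56% of the lowest members against 19.9% of all transcripts in that group, 4.44% against 17.4% in the next and 2.78% against 12.2% in the third. In the highest group no member was, against 7.85% of all transcripts. These shares describe the family and were not tested against other genes.

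**Figure D3:**
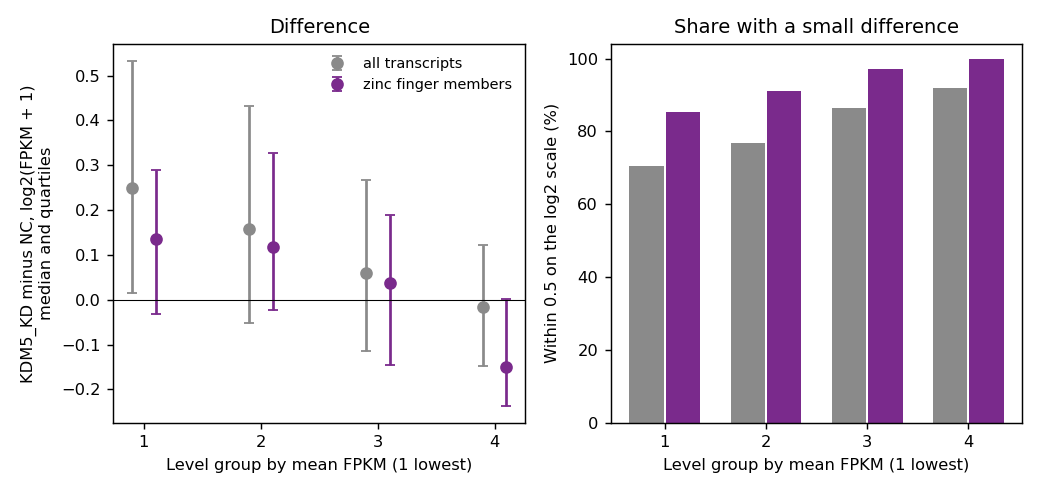
Left, median difference between groups (KDM5_KD minus NC, log2(FPKM + 1)) with quartiles as bars in 4 equal level groups, for all transcripts tested (grey) and zinc finger members (purple). Right, share of each with a difference within 0.5 on the log2 scale. The members' medians go from 0.14 in the lowest to -0.15 in the highest group, and their share within 0.5 is above that of all transcripts in each group.

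Members with a known part in the early embryo or in imprinting gave no call. Of all 8970 transcripts only 0.19% were called higher and 0.0892% lower. The absence of a call in this short list, or in those that follow, therefore does not set its genes apart. Of the 7 early embryo genes listed, 4 had a row. ZNF296 is described above. ZNF322, a factor linked to stem cell pluripotency, was at 21.5 and 29.6 FPKM in NC against 28.1 and 24.4 FPKM in KDM5_KD, with overlapping groups. ZNF462, a regulator of chromatin structure in development, was at 7.10 and 5.98 FPKM in NC against 8.05 and 8.77 FPKM in KDM5_KD, a log2 difference of 0.32 (SE 0.184, limma adjusted p of 0.422). ZSCAN10, a pluripotency factor gene, was listed at 0.111 and 0.0189 FPKM in NC against 0 in both KDM5_KD libraries, too low to compare. ZNF445, which protects imprinted loci together with ZFP57, was at 1.69 and 2.15 FPKM in NC against 2.34 and 2.33 FPKM in KDM5_KD. Both knockdown values were above both controls, with a log2 difference of 0.20 (SE 0.205, limma adjusted p of 0.674). ZSCAN4, ZFP42 and ZFP57 were not analysed here.

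Members tied to histone modification are of interest beside a knockdown of H3K4 demethylases, and none of the 6 with a row passed. ZNF335, a subunit of H3K4 methyltransferase complexes, was at 39.4 and 28.1 FPKM in NC against 31.0 and 26.1 FPKM in KDM5_KD, and the groups overlapped. ZNF687 and ZNF592 form a complex with ZMYND8, a reader of histone marks. ZNF687 was at 29.3 and 27.4 FPKM in NC against 25.6 and 23.8 FPKM in KDM5_KD, and ZNF592 at 17.8 and 17.0 against 12.9 and 16.6 FPKM. Knockdown values of both lay under both control values, with log2 differences of -0.19 (limma adjusted p 0.510) and -0.24 (limma adjusted p 0.534). The paralogs ZFX and ZNF711, activators that bind near promoters, overlapped between groups. ZFX was at 6.43 and 7.67 FPKM in NC against 6.26 and 7.92 FPKM in KDM5_KD, and ZNF711 at 2.42 and 3.84 against 3.27 and 3.67 FPKM. ZNF644, a partner of the H3K9 methyltransferases EHMT1 and EHMT2, was at 0.900 and 1.67 FPKM in NC against 1.37 and 1.85 FPKM in KDM5_KD, again with overlap.

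Among members that act on RNA, 8 of 9 with a row were tested and none passed. ZFP36, ZFP36L1 and ZFP36L2 promote decay of messenger RNAs with AU-rich elements. ZFP36 was at 8.84 and 13.9 FPKM in NC against 8.92 and 14.7 FPKM in KDM5_KD, low in both replicates numbered 1 and high in both numbered 2. ZFP36L1 was at 29.3 and 17.5 FPKM in NC against 27.5 and 33.8 FPKM in KDM5_KD, where NC replicate 2 alone was low. ZFP36L2, which has a known part in oocyte maturation, was at 38.8 and 35.3 FPKM in NC against 34.7 and 31.5 FPKM in KDM5_KD, a log2 difference of -0.16 (limma adjusted p of 0.588). The splicing-linked genes ZNF326 and ZNF638 and the double-stranded RNA binding gene ZNF346 had log2 differences of -0.11, 0.05 and -0.02, with overlapping groups.

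The genome and transcription group had 8 genes with a row, all tested, and none passed. ZNF143, which activates promoters of small nuclear RNA and many other genes, was at 11.0 and 11.8 FPKM in NC against 12.3 and 14.0 FPKM in KDM5_KD. ZNF24, a SCAN protein, was at 16.9 and 18.0 FPKM in NC against 15.0 and 16.0 FPKM in KDM5_KD. Neither pair of groups overlapped, with log2 differences of 0.19 and -0.16 (limma adjusted p of 0.598 and 0.615). ZNF207 and ZNF148 lay below both controls, as given above. ZNF263, a KRAB and SCAN protein, was at 15.8 and 17.5 FPKM in NC against 16.9 and 16.0 FPKM in KDM5_KD. ZNF451, a SUMO ligase, was at 4.12 and 5.92 FPKM in NC against 3.86 and 4.79 FPKM in KDM5_KD, and ZNF830 at 15.5 and 18.9 against 18.4 and 17.6 FPKM. All 3 overlapped between groups.

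Of 4 genes with 2 transcript rows, 2 had rows that differed in direction, and for such genes reads may be divided between rows by estimation. ZNF12, a KRAB gene, had NM_001372135 at 1.34 and 1.98 FPKM in NC against 3.16 and 2.74 FPKM in KDM5_KD, a log2 difference of 0.58 (limma adjusted p of 0.268). Its other row, NM_001110071, was at 1.87 and 1.20 FPKM in NC against 1.54 and 0.716 FPKM in KDM5_KD, a difference of -0.26. ZNF789 switched rows within the control group: NM_001244408 held 0.552 FPKM in NC replicate 1 and close to 0 in the other 3 libraries, where NM_001105470 held between 0.329 and 0.652 FPKM. ZNF410, which keeps the chromatin remodeller gene CHD4 active, was carried mainly by NM_001351946, at 25.5 and 23.7 FPKM in NC against 24.6 and 20.3 FPKM in KDM5_KD. Both rows of ZNF706 were highest in KDM5_KD replicate 2, at 46.2 and 20.0 FPKM, with 27.5 to 28.0 and 8.56 to 11.9 FPKM in the other 3 libraries.

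Zinc finger genes lie in clusters that arose by duplication, so differences were read along the gene order of ARS-UCD2.0. Members directly next to each other among protein-coding genes formed 24 runs with 58 genes, the longest of 4. In 16 runs at least 2 members were tested, 36 genes in all. In 4 of these runs all differences were above 0, in 1 all were below 0, and 11 held both signs. With median-ratio scaling the counts were 3, 2 and 11, and after quantile normalization 1, 6 and 9. None of the 36 passed the test.

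ZNF280A and its neighbour ZNF280B were both higher in each knockdown library than in each control. ZNF280B was at 9.79 and 10.3 FPKM in NC against 11.3 and 12.6 FPKM in KDM5_KD, a log2 difference of 0.23 beside the 0.52 of ZNF280A. ZKSCAN8 and ZSCAN16, neighbours of ZNF389, were both lower, by -0.29 and -0.26, and ZSCAN12 and ZSCAN31 were at 0.24 and 0.22. The widest gap was between ZNF787 and ZNF444, at 0.51 and -0.56, the latter resting on 1 control library. In the run of 4 with ZNF404, ZNF45, ZNF226 and ZNF227 the 3 tested genes lay between -0.01 and 0.12. In the other run of 4, ZNF394 stood at a mean of 155 FPKM beside ZNF789 at 0.377 FPKM, so neighbours can differ widely in level. Near-identical copies in such clusters can share reads, and the deposited values do not show how these were divided.

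**Figure D4:**
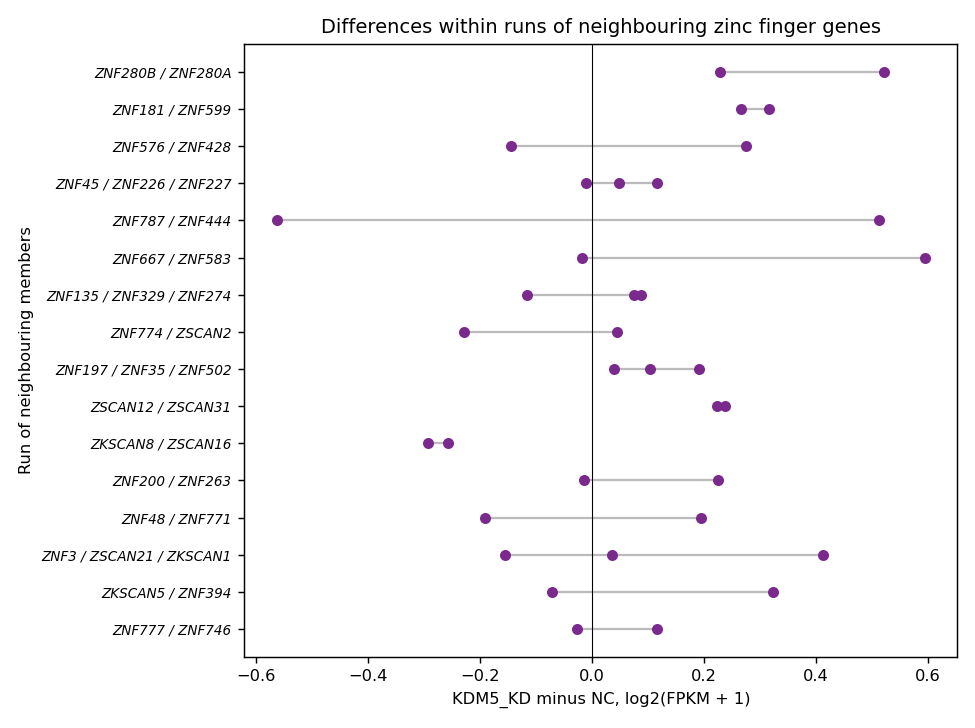
Difference between groups (horizontal axis, KDM5_KD minus NC on the log2(FPKM + 1) scale) of tested zinc finger genes that lie next to each other, 1 line per run and 1 point per gene. Of the 16 runs, 11 hold differences of both signs with values as deposited.

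The partners of KRAB zinc finger proteins were read from the same fit. Of 43 listed genes, 31 had a row and all 31 were tested; none passed, and at an unadjusted limma p under 0.05 there were 5 higher and 2 lower (16.1% and 6.45%, against 14.3% and 3.12% of all transcripts). Their median difference was 0.09, equal to that of all transcripts at this rounding. TRIM28, the corepressor bound by the KRAB box, was at 169 and 130 FPKM in NC against 107 and 97.5 FPKM in KDM5_KD, a log2 difference of -0.53 (SE 0.158, limma adjusted p of 0.186). Both knockdown values were below both controls, and the difference was between -0.65 and -0.52 under the 3 scalings tried. SETDB1, the methyltransferase recruited by TRIM28, was at 11.8 and 12.4 FPKM in NC against 12.3 and 16.4 FPKM in KDM5_KD, with overlap. EHMT2 was at 25.5 and 24.9 FPKM in NC against 16.8 and 19.3 FPKM in KDM5_KD, where limma gave an adjusted p of 0.200. The heterochromatin protein gene CBX1 was at 13.0 and 15.6 against 18.5 and 24.4 FPKM (limma adjusted p of 0.234). The DNA methyltransferase gene DNMT3A was at 0.641 and 0.629 against 1.36 and 1.55 FPKM (limma adjusted p of 0.226). Both control values of DNMT3A were below 1 FPKM, so it entered the test only through its knockdown values. It is among the 5 partners counted as higher, and 4.33% of all transcripts tested entered in this way.

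Genes with symbols of other C2H2 families, such as ZBTB, KLF, PRDM, ZIC and SNAI, served as a second comparison. Choice by symbol also let in ZBTB8OS, which has no zinc fingers. This list had 73 rows, of which 52 were tested, ZBTB8OS among them. None was called by limma, with 5 higher and 4 lower at an unadjusted p under 0.05 (9.62% and 7.69%, against the same 14.3% and 3.12%). Their median difference was 0.10, with quartiles of -0.10 and 0.44, and 73.1% lay within 0.5, against 91.0% of the zinc finger members. The difference between these families was not tested. At least 2-fold higher on the log2(FPKM + 1) scale among them were KLF6 and SNAI2, 3.85% of those tested against 4.52% of all transcripts. Their differences were 1.32 and 1.09, and SNAI1 lay lower at -0.50 (limma adjusted p of 0.107, 0.205 and 0.141). SNAI2 was at 0.402 and 0.274 FPKM in NC against 2.97 and 1.03 FPKM in KDM5_KD. By the ratio of mean FPKM, ZBTB4 was also over 2-fold higher (5.77%, against 8.33% of all transcripts), with a log2(FPKM + 1) difference of 0.69. The control means of SNAI2 and ZBTB4 were below 1 FPKM, so both entered the test only through their knockdown values. This held for 3.85% of the 52, against 4.33% of all transcripts tested.

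The 40 members below a mean of 1 FPKM were not tested. ZNF475 was listed at 0 in every library, and 7 of the 40 had a mean of at most 0.1 FPKM. In 20 of them (50%) both knockdown values were above both controls and in 3 (7.5%) below. Among all 3717 untested rows not at 0 in every library these shares were 29.2% and 8.39%, with levels not matched and the difference not tested. ZNF280BY, a Y-linked relative of ZNF280B, was at 0.0717 and 0.109 FPKM in NC, at 0.0814 FPKM in KDM5_KD replicate 1 and at 3.33 FPKM in KDM5_KD replicate 2. It was thus high in 1 library. ZIM2, a gene reported as imprinted in several mammals, was at 0.467 and 0.325 FPKM in NC against 0.733 and 0.983 FPKM in KDM5_KD. The 3 below were ZSCAN10, 1 row of ZNF789 and ZNF704. ZNF704 was at 1.031 and 1.001 FPKM in NC against 0.236 and 0.934 FPKM in KDM5_KD, low mainly in replicate 1.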

How the data were processed

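Polyadenylated RNA was sequenced from 4 libraries. The deposited table gives FPKM from the authors for 14517 RefSeq accessions. The submitters' processing notes name Trimmomatic, HISAT2, featureCounts and Cufflinks, with no role or version. The genome build is not given in the sources used here. Symbols came from a RefSeq gene table (ARS-UCD2.0) for 14295 accessions.

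Groups were compared by limma (version 3.58.1, run in R 4.3.3, eBayes with a mean-variance trend, no covariates) on the log2(FPKM + 1) scale. The 8970 rows averaging 1 FPKM or more over the 4 libraries were fitted, with Benjamini-Hochberg adjustment over all of them at a threshold of 0.05. Members and lists were chosen with earlier results of these data known. Genes were named where called, or for the 10 largest non-overlapping differences per direction at a mean of at least 2 FPKM, the 6 highest levels, or a listed role. The fit was tested on simulated data. Tables were made with pandas 2.3.3 and numpy 2.4.6 under Python 3.11.15, and plots with matplotlib 3.10.9. No protein or promoter sequences were used here, so protein classes were not compared.

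Read counts are unknown. From whole-number steps among values of 0.001 to 0.3 FPKM, NC replicate 1 and KDM5_KD replicates 1 and 2 had 0.683, 0.803 and 0.782 times the depth of NC replicate 2, with 47.4% to 49.5% of the ratios at such steps. Precision rests on 2 libraries per group. Alternatives were another pseudocount, filter, scaling or variance model, the replicate number as a block, rows summed by symbol, and each library left out.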

Additional observations from a re-analysis of the deposited data

How the results depend on the processing

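The call of ZNF557 was lost with no filter on low values, with eBayes without a trend and with the replicate block (0 members called higher in each), at limma adjusted p of 0.223, 0.0605 and 0.0591. With 1 library left out, the log2 difference of ZNF557 lay between 1.95 and 2.43 and that of ZNF385B between 1.30 and 1.72. A group then held 1 library, so the number of members called in those fits is not read as a result. The median difference of the members was 0.10 with no filter, 0.013 with a mean FPKM of at least 5, -0.014 with median-ratio scaling and -0.12 after quantile normalization, and between 0.065 and 0.11 with 1 library left out. At least 2-fold higher were 4 members with a pseudocount of 0.1 and 1 with a mean FPKM of at least 5. With 1 library left out, 2 to 3 were 2-fold higher and 0 to 1 lower. The members above both controls numbered 18 with a mean FPKM of at least 5, where only 80 members were tested. Quantile normalization gave 15 above (9.62%, against 20.7% of all transcripts) and 57 below (36.5% against 28.3%). For the other settings in this paragraph the matching shares of all transcripts are not given. Counts of 2-fold or non-overlapping members at those settings are therefore not read as results about the family. With 1 library left out there were 67 to 77 above and 40 to 46 below, more by construction, since fewer libraries must be separated.

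Over all transcripts, calls went from 17 higher and 8 lower to 2 and 1 with no filter, 11 higher with a mean FPKM of at least 5, 6 higher without a trend, 37 higher with robust eBayes, and 8 higher and 4 lower with the replicate block. With 1 library left out they ranged from 3 to 323 higher and from 3 to 17 lower, the highest counts without NC replicate 1. A lone library was then assumed to vary like the other group. The cause of these changes in the number of calls was not tested. Of 270 comparisons of the 20 genes named by size with their alternatives, 263 kept direction and side of the threshold, 6 lost the threshold (ZNF557) and 1 passed it (ZNF385B). The 20 genes were chosen for groups without overlap, so leaving out a library could not reverse their direction. A change of filter or variance model leaves the difference itself as it was, and most of these genes were far from the threshold. The count of 263 is therefore not read as a result. ZNF385B passed only without NC replicate 1, where the most transcripts were called. Deviations of libraries with the same replicate number correlated at 0.229, but the labels do not say that a number marks shared embryos. The replicate block changed no other call among the members. Depth limits the low members most.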
